A study of Homo sapiens with 12 samples.

Results

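The genes described here encode the core proteins of the small nuclear ribonucleoproteins (snRNPs), the RNA and protein particles that make up the spliceosome, together with close relatives of the same names. They were chosen by name from the count table, as the protein-coding genes whose symbol starts with SNRP, or with SF3A, SF3B, PRPF or LSM followed by a digit. This rule goes by names and gave 47 of the 57704 genes in the table. By role, 8 encode proteins of the Sm ring, 2 encode proteins of the U1 snRNP and 2 encode the U2 proteins A′ and B″. The U2 subcomplexes SF3A and SF3B account for 3 and 6 genes, and the U4/U6.U5 tri-snRNP for 5. A further 8 genes carry the PRPF name with other splicing roles, 8 encode proteins of the LSm ring, 2 belong to the U7 snRNP and 3 are other LSm genes. The label of a core spliceosome set holds for most but not all of these. LSM10 and LSM11 act on histone mRNA, LSM1 acts in cytoplasmic mRNA decay, and LSM14A and LSM14B are proteins of cytoplasmic mRNA granules.

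Each major spliceosomal snRNP is built on a small nuclear RNA. The U1, U2, U4 and U5 RNAs carry a ring of Sm proteins, whereas the U6 RNA carries a ring of the related proteins LSm2 to LSm8, and a cytoplasmic ring in which LSm1 takes the place of LSm8 binds mRNAs that are being degraded. During splicing U1 marks the 5′ splice site, U2 binds the branch point with the help of SF3A and SF3B, and the tri-snRNP of U4, U6 and U5 then joins and is remodelled into the catalytic enzyme.

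The measurements came from HEK293 cells, an established line of human embryonic kidney origin, that stably express a reporter made of an endogenous intronic sequence joined to DARP-EGFP. In the SUPT4H1 siRNA group the cells received pooled siRNAs against SUPT4H1, the small subunit of the transcription elongation factor DSIF, and their lysates received ERCC mix 2 RNA standards. In the scrambled siRNA group the cells received scrambled siRNAs and the lysates received ERCC mix 1. Both groups carried the same reporter, were transfected at 100 nM and were lysed after 72 hours at 1000000 cells per sample. Each held 6 libraries from 6 transfections of 1 starting culture. The p-values set the difference between groups against the spread between such transfections. Libraries were made with a 3′-end kit that reads polyadenylated RNA, and neither splicing nor the snRNAs themselves were analysed.

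Endogenous counts per library ran from 6591194 to 11366971 with SUPT4H1 siRNA and from 7337033 to 20269171 with scrambled siRNA, so the depth differed between groups. Levels are given as CPM (counts of a gene per 1000000 endogenous counts of its library) after TMM scaling, and fold changes as log2 of SUPT4H1 siRNA over scrambled siRNA. SUPT4H1 itself had between 17.9 and 22.8 CPM with SUPT4H1 siRNA and between 175 and 199 CPM with scrambled siRNA, a log2 fold change of −3.14 (standard error 0.08, edgeR adjusted p = 2.57e-17). SUPT5H, which encodes the large subunit of DSIF, averaged 62.5 ± 5.91 and 52.0 ± 2.85 CPM (SD, n = 6 each; log2 0.27, edgeR adjusted p = 0.00986). Of 6 genes taken as marks of HEK293 cells, VIM, KRT8, KRT18 and NEFL were abundant, while NEFM and PAX2 averaged under 2 CPM in both groups. The summed level of this list lay between 1336 and 1459.8 CPM with SUPT4H1 siRNA and between 1633 and 2173 CPM with scrambled siRNA, with VIM higher and KRT18 and NEFL lower by edgeR. The part of this difference in the results was not tested. Sums of endothelial, leukocyte and hepatocyte markers stayed below 2 CPM in all 12 libraries, with CDH5 and PTPRC at 0, and the sum of 5 fibroblast markers lay between 6.56 and 11.96 CPM with SUPT4H1 siRNA and between 6.90 and 12.9 CPM with scrambled siRNA. SUPT4H1 siRNA replicate 6 stood apart on the second principal component (−42.5, against 4.50 to 21.2 for the rest of its group). Calls that change without this library are given both ways. Scrambled siRNA replicate 2 lay apart to the same side by less (−22.5, against −8.49 to 7.36 for the rest of its group).

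Relative to all mRNA, some snRNP protein genes rose and others fell with SUPT4H1 siRNA, and the estimated change was smaller than 2-fold in each of them. Of the 47 genes, 45 passed the filter on low counts and were tested. Of these, 11 rose and 8 fell (edgeR quasi-likelihood test, adjusted p under 0.05), or 24.4% and 17.8%, where 20.0% of all 13811 genes tested rose and 20.2% fell. These shares are near those of all genes, so the counts by themselves say nothing particular about snRNP proteins. For 13 genes (28.9%) no library of one group lay within the range of the other, where this held for 20.4% of all genes tested. Most of the 45 genes are well expressed, and 32 had a scrambled mean of 50 CPM or more. Of these 32, 8 did not overlap between groups, a lower share than the 30.6% of all genes at that level. By edgeR 5 of the 32 rose (15.6%) and 7 fell (21.9%), where 22.3% and 28.5% of all genes at that level did. These differences in share were not tested. The median log2 fold change of the 45 genes was −0.0024, and that of all genes was −0.0015. The largest rise was that of PRPF19 (1.85-fold) and the largest fall that of SNRPA1 (1.82-fold). By these estimates none of the 45 changed by 2-fold or more. Of all 13811 genes 586 did, 52 of them among the 3486 with a scrambled mean of 50 CPM or more. Without SUPT4H1 siRNA replicate 6, 13 rose and 10 fell, and with scaling by total counts 14 rose and 6 fell.

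Rises and falls are given here by family, beside the 20.0% of all genes tested that rose and the 20.2% that fell. Of the 13 genes named PRPF 6 rose (46.2%) and 0 fell, and their relative log2 fold changes had a median of 0.38, or −0.42 with the spike-in scaling described further on. Without SUPT4H1 siRNA replicate 6 the relative median was 0.24. The count of falls was also 0 at an unadjusted p under 0.05 and by DESeq2, and 1 by limma-voom and without SUPT4H1 siRNA replicate 6. Of 12 tested LSM genes 1 rose and 4 fell (33.3%), with a median of −0.08. Its count of falls was 2 with no filter on low counts, with scaling by total counts or by RLE, and in 8 of the 12 fits that left out 1 library. Of 11 tested SNRP genes 2 rose (18.2%) and 4 fell (36.4%), with a median of −0.12. Of 9 SF3A and SF3B genes 2 rose (22.2%, near the share of all genes) and 0 fell, with a median of 0.08, or −0.74 with spike-in scaling. In that family 4 rose and 0 fell at an unadjusted p under 0.05 and by DESeq2, and 2 and 0 by limma-voom, with 4 and 0 without SUPT4H1 siRNA replicate 6. These are descriptions of small families, and the difference between families was not tested.

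**Figure D1:**
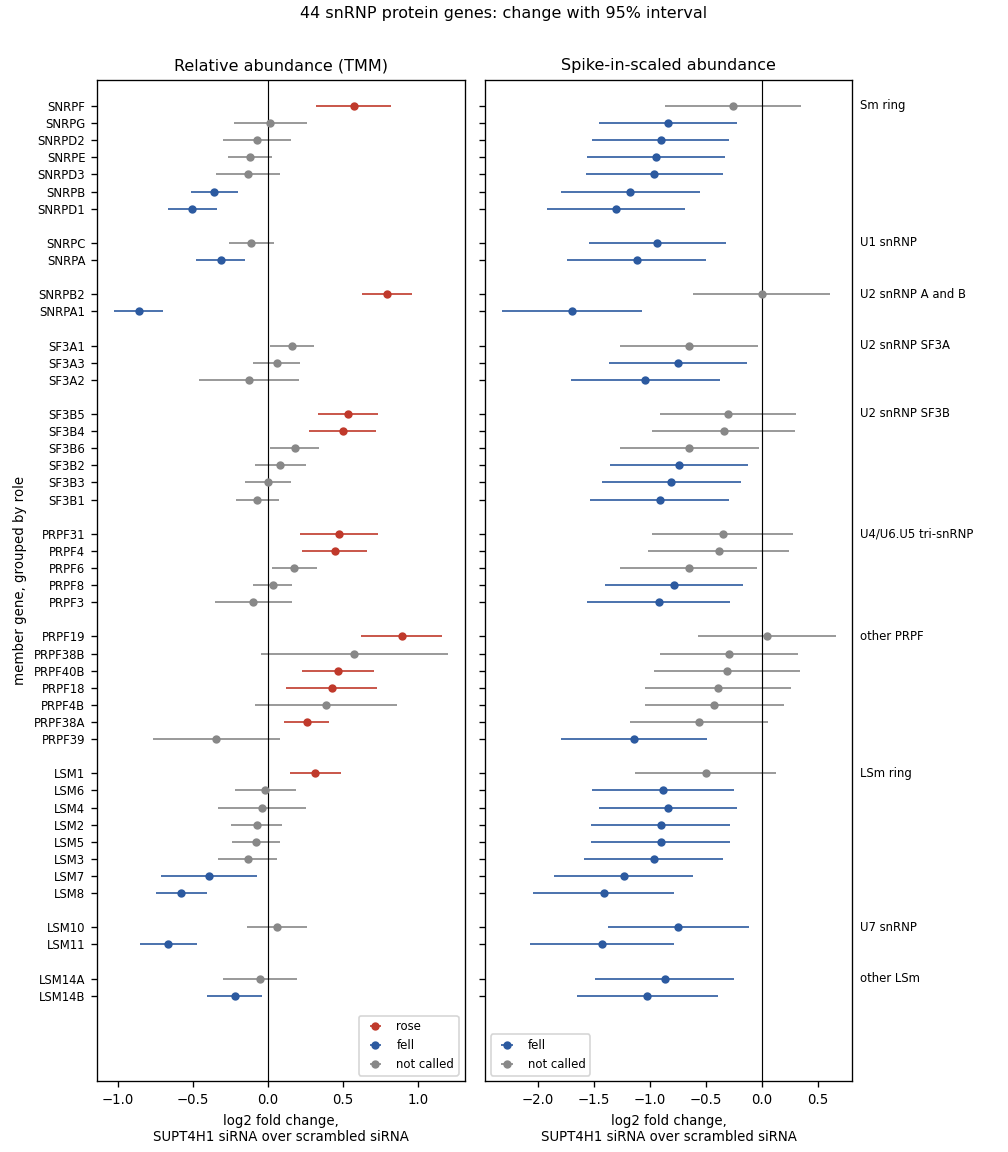
Log2 fold change of SUPT4H1 siRNA over scrambled siRNA for 44 of the 45 tested genes by role, in relative abundance (left) and with spike-in scaling (right); points are edgeR estimates, bars their 95% intervals and colours the call at an adjusted p of 0.05. In relative abundance 11 rose and 8 fell; with spike-in scaling 28 of those shown fell and 0 rose.

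The promoters of 6 genes are shown here, chosen among called genes with no overlap and with an entry in the RefSeq table (GRCh38.p14). They are those with the largest falls and the largest rises, in equal number, so both directions are present by choice. Each window runs from 250 bases before to 50 bases after the annotated start, 5′ to 3′ on the gene's strand. Capitals mark matches to 7 words searched on both strands, namely the GC box bound by SP1 (GGGCGG), the box named after its letters CCAAT, the ETS factor word CCGGAAG, the NRF1 word CGCATGCG, the YY1 word AAGATGGC, the ZBTB33 word CTCGCGAG and the TATA word TATAAA. SNRPA1, LSM11 and LSM8 fell, and SNRPB2, PRPF19 and SF3B5 rose.
SNRPA1 (chr15:101295199-101295498, minus strand): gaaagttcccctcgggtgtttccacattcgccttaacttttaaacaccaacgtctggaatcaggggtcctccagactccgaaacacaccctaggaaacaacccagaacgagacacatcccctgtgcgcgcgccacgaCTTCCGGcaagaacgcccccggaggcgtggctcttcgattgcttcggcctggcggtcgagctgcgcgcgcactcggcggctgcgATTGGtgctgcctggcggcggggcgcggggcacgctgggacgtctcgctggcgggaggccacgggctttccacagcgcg
LSM11 (chr5:157743462-157743761, plus strand): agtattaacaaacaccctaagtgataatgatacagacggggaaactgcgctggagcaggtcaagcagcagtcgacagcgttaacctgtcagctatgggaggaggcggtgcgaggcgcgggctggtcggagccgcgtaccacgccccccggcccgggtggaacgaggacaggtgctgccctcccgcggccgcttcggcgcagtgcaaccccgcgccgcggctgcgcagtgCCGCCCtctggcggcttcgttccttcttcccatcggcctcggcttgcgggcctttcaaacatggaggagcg
LSM8 (chr7:118183914-118184213, plus strand): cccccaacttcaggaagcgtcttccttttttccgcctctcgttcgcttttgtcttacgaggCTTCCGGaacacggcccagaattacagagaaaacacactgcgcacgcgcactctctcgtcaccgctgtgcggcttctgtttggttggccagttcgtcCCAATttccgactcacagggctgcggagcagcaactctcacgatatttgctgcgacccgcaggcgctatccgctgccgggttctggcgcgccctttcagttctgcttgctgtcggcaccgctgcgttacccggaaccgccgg
SNRPB2 (chr20:16729776-16730075, plus strand): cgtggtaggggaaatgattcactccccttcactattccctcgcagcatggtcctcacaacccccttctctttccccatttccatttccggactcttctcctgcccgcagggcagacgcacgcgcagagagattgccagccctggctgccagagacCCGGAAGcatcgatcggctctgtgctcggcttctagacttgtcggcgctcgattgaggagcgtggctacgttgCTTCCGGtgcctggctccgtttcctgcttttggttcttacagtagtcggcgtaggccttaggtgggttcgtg
PRPF19 (chr11:60906536-60906835, minus strand): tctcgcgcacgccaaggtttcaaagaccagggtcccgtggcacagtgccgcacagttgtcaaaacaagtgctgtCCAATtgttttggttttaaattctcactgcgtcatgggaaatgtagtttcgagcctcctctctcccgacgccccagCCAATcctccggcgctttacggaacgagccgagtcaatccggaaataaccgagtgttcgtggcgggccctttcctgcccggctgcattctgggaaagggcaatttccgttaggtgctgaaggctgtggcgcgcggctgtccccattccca
SF3B5 (chr6:144095524-144095823, minus strand): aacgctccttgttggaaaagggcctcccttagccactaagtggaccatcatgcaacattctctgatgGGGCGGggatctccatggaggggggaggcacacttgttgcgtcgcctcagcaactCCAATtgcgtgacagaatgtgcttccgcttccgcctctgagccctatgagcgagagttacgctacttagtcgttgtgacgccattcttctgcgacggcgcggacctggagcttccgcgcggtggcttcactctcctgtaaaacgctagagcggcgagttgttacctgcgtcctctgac
The ETS word was found in 1 of the 3 rising genes shown, SNRPB2, which held it at positions −95 and −22 from the start (first base of each match, counted on the gene's strand), and in SNRPA1 at −113 and LSM8 at −189. CCAAT stood at −29 in SNRPA1, at −92 in LSM8, at −176 and −100 in PRPF19 and at −128 in SF3B5. The GC box stood at −21 in LSM11 and at −183 in SF3B5. The shared ETS word was thus present in genes of both directions.

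Across the set the ETS word was more frequent than among all tested genes. It was found in 20 of 43 windows (46.5%) of 36 tested genes with an entry, where 16.6% of 15196 windows of all tested genes held it. Counted by gene, 17 of the 36 (47.2%) held it in at least 1 window, where 22.5% of 10294 tested genes did. It was present in 3 of 10 windows of genes that rose (30.0%) and in 3 of 7 windows of genes that fell (42.9%). The GC box and CCAAT were each present in 6 of 10 and in 4 of 7 of these windows. The windows are few, and a difference by direction was not tested. The GC box was found in 51.2% of the 43 windows, against 66.5% of those of all tested genes, CCAAT in 37.2% against 34.8%, and the YY1 word in 11.6% against 4.74%. The TATA word was found in 1 window (2.33%), that of SNRPC, against 6.22%. The NRF1 and ZBTB33 words were each found in 1 window (2.33%), of LSM7 and LSM3, against 3.38% and 1.83%. A match describes these letters only, and alternative windows of 1 gene can overlap.

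The sharpest contrast was within the U2 snRNP, between the partner proteins A′ and B″, which bind each other and the U2 RNA together. SNRPA1 encodes U2 A′ (chromosome 15 from 101281510 to 101295282 in GENCODE 29, GRCh38). It had 112, 135 and 147 CPM as lowest, median and highest values with SUPT4H1 siRNA, against 205, 249 and 259 CPM with scrambled siRNA. All 6 libraries with SUPT4H1 siRNA were below all 6 with scrambled siRNA, and the log2 fold change was −0.86 (standard error 0.08, edgeR adjusted p = 5.00e-08). SNRPB2 (chromosome 20 from 16729961 to 16742563) encodes U2 B″. It had 309, 404 and 426 CPM with SUPT4H1 siRNA, against 215, 224 and 246 CPM with scrambled siRNA. Here all 6 SUPT4H1 siRNA libraries were above the scrambled ones, and the log2 fold change was 0.79 (standard error 0.08, edgeR adjusted p = 1.37e-07). The ratio of SNRPA1 counts to SNRPB2 counts within a library, which no scaling of libraries affects, lay between 0.300 and 0.364 with SUPT4H1 siRNA and between 0.933 and 1.16 with scrambled siRNA. This pair and those below were chosen with the values in view, and their ratios were not tested. SNRPA1 and SNRPB2 kept their calls in relative abundance under each of 22 alternatives, including a minimum change of 1.5-fold.

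**Figure D2:**
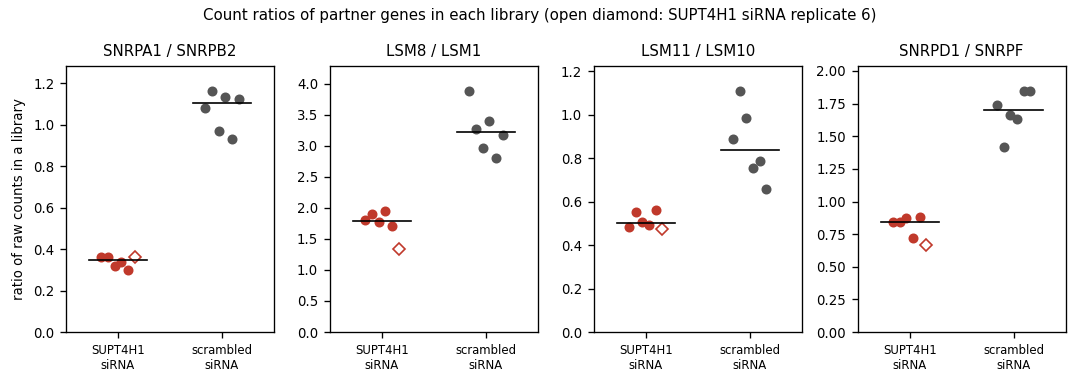
Ratio of raw counts of partner genes in each of the 12 libraries, SUPT4H1 siRNA left and scrambled siRNA right in each panel; points are libraries (open diamonds SUPT4H1 siRNA replicate 6) and lines group medians. The groups did not overlap in these 4 of the 5 ratios computed, and they did overlap for SNRPB to SNRPD3, which is not plotted.

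In the SF3B subcomplex, which clamps the branch point, the subunit genes SF3B4 and SF3B5 rose, while those of the large scaffold subunits did not pass the test. SF3B5 (chromosome 6 from 144094881 to 144095573), a single-exon gene for a small subunit, had 778, 872 and 1143 CPM with SUPT4H1 siRNA, against 536, 615 and 714 CPM with scrambled siRNA. The groups did not overlap, and its log2 fold change was 0.53 (standard error 0.10, edgeR adjusted p = 1.80e-04). SF3B4 (chromosome 1 from 149923317 to 149928344), a subunit with RNA recognition motifs, had 18.5, 22.6 and 26.6 CPM with SUPT4H1 siRNA, against 14.7, 15.8 and 17.2 CPM with scrambled siRNA. These did not overlap either, and the log2 fold change was 0.50 (standard error 0.11, edgeR adjusted p = 9.05e-04). SF3B1 (chromosome 2 from 197389784 to 197435091), the largest scaffold and a gene often mutated in myelodysplastic syndromes, had 114, 118 and 130.0 CPM with SUPT4H1 siRNA, against 117, 126 and 136 CPM with scrambled siRNA. These ranges overlapped, and the log2 fold change of −0.07 had a 95% interval of −0.22 to 0.07 (edgeR adjusted p = 0.427). SF3B2 (0.08) and SF3B3 (−0.0024) were not called. SF3B6, the subunit that contacts the branch point adenosine, had a log2 fold change of 0.18 (adjusted p = 0.0738), and it passed without SUPT4H1 siRNA replicate 6 (0.22, edgeR adjusted p = 0.0137). It also passed by DESeq2 and with scaling by total counts. The summed level of the 6 SF3B genes was 1492 ± 180.5 CPM with SUPT4H1 siRNA and 1155 ± 68.6 CPM with scrambled siRNA (before TMM scaling, SD, n = 6 each), of which SF3B5 made the greater part.

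SF3A, the other U2 subcomplex, is a trimer. Of its 3 genes 0 were called by edgeR and limma-voom, while 1 rose at an unadjusted p under 0.05 and by DESeq2. That gene was SF3A1 (log2 0.16, adjusted p = 0.0741), which rose without SUPT4H1 siRNA replicate 6 (0.19, edgeR adjusted p = 0.0225). SF3A3 averaged 160.4 ± 16.1 CPM with SUPT4H1 siRNA and 154 ± 8.70 CPM with scrambled siRNA (SD, n = 6 each), a log2 fold change of 0.06. SF3A2 was low, at 9.48 ± 3.01 and 10.3 ± 1.27 CPM (log2 −0.13, and −0.29 without SUPT4H1 siRNA replicate 6, not called in either). Its 1454 counts over all libraries compare with 15205 for PLEKHJ1, an opposite-strand gene with overlapping exons, and its value is uncertain because the strand setting is not known here.

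In U1, SNRPA fell and SNRPC was not called. SNRPA (chromosome 19 from 40750637 to 40765389) encodes the U1 A protein, a homologue of U2 B″ that binds a stem-loop of U1 RNA. It had 126, 154 and 164 CPM with SUPT4H1 siRNA, against 167, 186 and 213 CPM with scrambled siRNA, without overlap, and its log2 fold change was −0.32 (standard error 0.08, edgeR adjusted p = 0.00300). The homologues SNRPA and SNRPB2 thus moved in opposite directions. SNRPC encodes the U1 C protein, which stabilises the pairing of U1 with the 5′ splice site. It averaged 666 ± 45.8 and 719.5 ± 42.7 CPM with SUPT4H1 and scrambled siRNA (SD, n = 6 each), a log2 fold change of −0.11 with a 95% interval of −0.26 to 0.04.

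The Sm ring, shared by U1, U2, U4 and U5, did not change as a unit. Of its 7 tested genes 1 rose and 2 fell. SNRPD1 (chromosome 18 from 21612267 to 21633524), which encodes Sm D1, had 566, 631 and 697 CPM with SUPT4H1 siRNA, against 764, 888 and 992 CPM with scrambled siRNA. The groups did not overlap, and its log2 fold change was −0.50 (standard error 0.08, edgeR adjusted p = 3.27e-05). SNRPB (chromosome 20 from 2461634 to 2470853), the gene for Sm B and B′, had 253, 272 and 309 CPM with SUPT4H1 siRNA, against 317, 348 and 402 CPM with scrambled siRNA. These also did not overlap, with a log2 fold change of −0.36 (standard error 0.08, edgeR adjusted p = 8.35e-04). SNRPF, which encodes Sm F, had 673, 743 and 1051 CPM with SUPT4H1 siRNA, against 413, 526 and 700.4 CPM with scrambled siRNA. The groups overlapped at their edges, and it rose with a log2 fold change of 0.57 (standard error 0.12, edgeR adjusted p = 9.66e-04). The SNRPD1 to SNRPF count ratio lay between 0.664 and 0.879 with SUPT4H1 siRNA and between 1.42 and 1.85 with scrambled siRNA. Of the 5 partner ratios computed, that of SNRPB to SNRPD3, whose products pair in the ring, is the one in which the groups overlapped, at 0.274 to 0.464 with SUPT4H1 siRNA and 0.390 to 0.524 with scrambled siRNA.

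SNRPD2 (−0.07), SNRPD3 (−0.13), SNRPE (−0.12) and SNRPG (0.02), which encode the remaining ring proteins, were not called. SNRPD3 fell without SUPT4H1 siRNA replicate 6 (log2 −0.22, edgeR adjusted p = 0.0388). The summed counts of the Sm genes were 3761 ± 259 CPM before TMM scaling with SUPT4H1 siRNA and 3850.0 ± 295 CPM with scrambled siRNA (SD, n = 6 each). SNRPN, an imprinted gene for the B-like protein Sm N found mainly in neurons, had 1 count in each of 3 SUPT4H1 siRNA libraries and 0 in the other 9, which was too low to test. A count of 0 allows up to 0.148 to 0.409 CPM in the scrambled libraries. SNRPN (chromosome 15 from 24823637 to 24978723) shares exons on the same strand with SNURF, which had 0 counts, and reads assigned to neither could not be seen here.

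In the tri-snRNP, PRPF31 and PRPF4 rose and the largest protein, PRPF8, was not called. PRPF8 (chromosome 17 from 1650629 to 1684882) encodes the U5 protein at the catalytic centre. It had 209, 218 and 228 CPM with SUPT4H1 siRNA, against 203, 215 and 218 CPM with scrambled siRNA, with overlap and a log2 fold change of 0.03 (95% interval −0.10 to 0.16, edgeR adjusted p = 0.725). PRPF31 (chromosome 19 from 54115410 to 54131719) encodes the U4/U6 protein that bridges to U5, and its loss causes retinitis pigmentosa. It had 29.7, 51.7 and 59.1 CPM with SUPT4H1 siRNA, against 30.6, 36.2 and 41.8 CPM with scrambled siRNA. The lowest of the first group, replicate 6, lay below all scrambled libraries, while the other 5 lay above them, between 50.1 and 59.1 CPM. Its log2 fold change was 0.47 (standard error 0.12, edgeR adjusted p = 0.00481), and 0.58 without that library (edgeR adjusted p = 6.79e-06). PRPF4 (chromosome 9 from 113275343 to 113292905), a U4/U6 protein that binds PRPF3, had 34.2, 36.5 and 52.9 CPM with SUPT4H1 siRNA, against 27.0, 28.2 and 33.4 CPM with scrambled siRNA, without overlap. Its log2 fold change was 0.44 (standard error 0.10, edgeR adjusted p = 0.00190), while its partner gene PRPF3 had −0.10 and was not called. PRPF6, the U5 protein that bridges to U4/U6, had 0.17 (edgeR adjusted p = 0.0549), and 0.18 without replicate 6 (adjusted p = 0.0435). It lay near the threshold, and it also passed by DESeq2, by limma-voom, and with scaling by RLE or by total counts.

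Of the other 8 PRPF genes 4 rose. PRPF19 (chromosome 11 from 60890730 to 60906588), a ubiquitin ligase that gives the PRP19 complex its name and acts in spliceosome activation, had 183, 211 and 351 CPM with SUPT4H1 siRNA, against 109, 127 and 139.7 CPM with scrambled siRNA. All SUPT4H1 siRNA libraries were above the scrambled ones, with replicate 6 highest, and the log2 fold change was 0.89 (standard error 0.13, edgeR adjusted p = 3.37e-05). Without replicate 6 it was 0.74 (edgeR adjusted p = 4.46e-08). PRPF40B (chromosome 12 from 49568218 to 49644666), related to a yeast U1 protein, had 13.0, 14.5 and 16.4 CPM with SUPT4H1 siRNA, against 8.96, 10.1 and 12.6 CPM with scrambled siRNA. Its groups did not overlap, and its log2 fold change was 0.47 (standard error 0.11, edgeR adjusted p = 0.00275). PRPF38A, which acts in the activation of the precatalytic spliceosome, rose by 0.26 (edgeR adjusted p = 0.00728). PRPF18, a factor of the second catalytic step, rose by 0.42 (edgeR adjusted p = 0.0251), and it did not pass without SUPT4H1 siRNA replicate 6 (0.28, adjusted p = 0.0660) or without scrambled siRNA replicate 6 (0.38, edgeR adjusted p = 0.0526). PRPF38B (0.57) and the kinase gene PRPF4B (0.38) were not called, and stood at 0.24 and 0.17 without SUPT4H1 siRNA replicate 6. PRPF39 had −0.34 and was not called over all 12 libraries, whereas it fell by 0.60 on the log2 scale without SUPT4H1 siRNA replicate 6 (edgeR adjusted p = 5.07e-04).

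**Figure D3:**
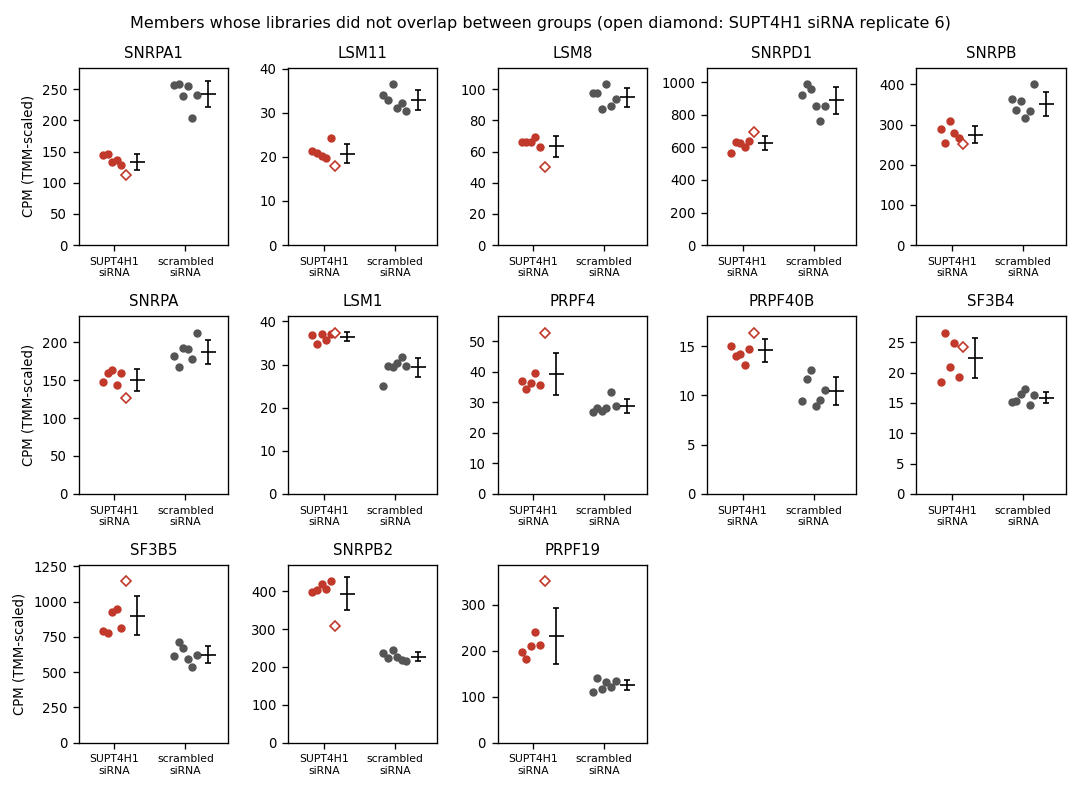
CPM of the 13 called genes whose libraries did not overlap, for each SUPT4H1 siRNA library (left in each panel) and scrambled siRNA library (right), with mean and SD; open diamonds are SUPT4H1 siRNA replicate 6. In relative abundance the SUPT4H1 siRNA libraries lie lower for SNRPA1, LSM11, LSM8, SNRPD1, SNRPB and SNRPA and higher for the other 7.

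The LSm rings gave another pair of opposite changes. LSM8 (chromosome 7 from 118184032 to 118192824) encodes the subunit that defines the nuclear ring on U6 RNA. It had 50.0, 65.9 and 69.2 CPM with SUPT4H1 siRNA, against 87.2, 95.6 and 104 CPM with scrambled siRNA. The groups did not overlap, and the log2 fold change was −0.58 (standard error 0.08, edgeR adjusted p = 1.09e-05). LSM1 (chromosome 8 from 38163321 to 38176730), whose product takes its place in the cytoplasmic decay ring, had 34.8, 37.0 and 37.4 CPM with SUPT4H1 siRNA, against 25.1, 29.7 and 31.7 CPM with scrambled siRNA. These did not overlap either, and LSM1 rose with a log2 fold change of 0.31 (standard error 0.08, edgeR adjusted p = 0.00390). The count ratio of LSM8 to LSM1 lay between 1.34 and 1.94 with SUPT4H1 siRNA and between 2.81 and 3.89 with scrambled siRNA. Exons of LSM1 overlap BAG4 on the opposite strand, which had 2439 counts against 4759 for LSM1 and a log2 fold change of −0.30 (edgeR adjusted p = 0.0663).

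Of the subunits common to both rings, LSM2 (−0.08), LSM3 (−0.14), LSM4 (−0.04), LSM5 (−0.08) and LSM6 (−0.02) were not called. LSM7 had 84.8, 163 and 208 CPM with SUPT4H1 siRNA, against 185, 209.8 and 229 CPM with scrambled siRNA, with overlap. It passed at the threshold itself (log2 −0.39, edgeR adjusted p = 0.04998) and lost its call in 10 of 12 fits that left out 1 library, with adjusted p up to 0.108. Without SUPT4H1 siRNA replicate 6, its lowest library, the value was −0.26 (adjusted p = 0.00911). The exons of LSM7 overlap SPPL2B on the opposite strand, which had 4011 counts against 28400 and rose (log2 0.50).

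The U7 snRNP, which cleaves replication-dependent histone pre-mRNA, carries LSm10 and LSm11 in place of Sm D1 and Sm D2. LSM11 (chromosome 5 from 157743695 to 157760709), which recruits the cleavage factors, had 18.0, 20.4 and 24.3 CPM with SUPT4H1 siRNA, against 30.3, 32.5 and 36.6 CPM with scrambled siRNA. The groups did not overlap, and it fell with a log2 fold change of −0.66 (standard error 0.09, edgeR adjusted p = 9.01e-06). LSM10 averaged 40.4 ± 2.70 CPM with SUPT4H1 siRNA and 38.8 ± 5.46 CPM with scrambled siRNA (SD, n = 6 each), a log2 fold change of 0.06 with a 95% interval of −0.14 to 0.26. The count ratio of LSM11 to LSM10 lay between 0.475 and 0.562 with SUPT4H1 siRNA and between 0.659 and 1.11 with scrambled siRNA. Among the other LSm genes, LSM14B had 45.1 ± 4.93 and 52.6 ± 4.96 CPM and passed narrowly (log2 −0.22, edgeR adjusted p = 0.0487), with the call lost in 9 of 12 fits that left out 1 library (adjusted p up to 0.129). LSM14A (−0.05) was not called. LSM12 had at most 2 counts in any library and was not tested.

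When libraries were scaled by the spike-in standards instead, which sets counts against a fixed volume added per lysate, nearly all of these genes were lower with SUPT4H1 siRNA. Of the 45, 29 fell and 0 rose (edgeR, adjusted p under 0.05), where 59.0% of all genes tested fell and 0.311% rose. The count of rises was also 0 at an unadjusted p under 0.05 and by DESeq2, which called 31 falls. With ERCC subgroup C as the standards in place of subgroup B, the count of falls was 6 and the median of all genes −0.51. The median log2 fold change was −0.84 beside −0.82 for all genes, so the genes followed the shift of the whole table. SNRPA1 stood at −1.70 (95% interval −2.33 to −1.07), LSM11 at −1.43 (−2.07 to −0.79), LSM8 at −1.41 (−2.04 to −0.78) and SNRPD1 at −1.30. SF3B1 (−0.91) and PRPF8 (−0.78), near 0 in relative abundance, fell by about the shift of all genes. The relative risers SNRPB2 (−0.00082, 95% interval −0.61 to 0.61) and PRPF19 (0.05, −0.57 to 0.66) were the closest to 0, and their intervals reach both sides of it.

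All genes share the scaling factor of a library, so these calls are not independent. On a log2 scale, endogenous counts per count of the standards used here ran from 7.62 to 9.27 with SUPT4H1 siRNA and from 8.78 to 9.74 with scrambled siRNA. The count of falls was 42 without SUPT4H1 siRNA replicate 5 and 19 without scrambled siRNA replicate 4, which held the highest ratio of their groups. Of all 13811 genes tested, 12171 and 5597 fell in these fits, so the count moved with that of the whole table. Group and mix coincide, so a difference between the mixes and one between the groups cannot be told apart, nor can fewer cells and less RNA per cell.

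SUPT4H1 siRNA replicate 6 departed from its group in the levels of many snRNP protein genes. It lay outside the range of the other 5 libraries for 35 of the 45 genes (77.8%), above it for 18 and below it for 17, where this held for 59.5% of all genes tested. PRPF38B had 206 CPM in SUPT4H1 siRNA replicate 6, where the other 5 libraries of the group lay between 64.7 and 91.9 CPM. PRPF39 had 26.3 CPM in SUPT4H1 siRNA replicate 6, where the other 5 libraries of the group lay between 9.83 and 13.5 CPM. PRPF4B had 110.1 CPM there, against 43.1 to 74.5 CPM. These 3 genes were the farthest above the rest. On the low side, LSM7 had 84.8 CPM, against 153 to 208 CPM, and PRPF31 had 29.7 CPM, against 50.1 to 59.1 CPM. LSM4 had 147 CPM, against 220.4 to 302 CPM. In all, 6 genes were at least 1.5-fold above the mean of the other 5 libraries and 4 were at least 1.5-fold below it. This library had the fewest endogenous counts (6591194) and an RNA integrity number of 9.8, where the group ran from 9.6 to 10. Their part in its levels was not tested.

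**Figure D4:**
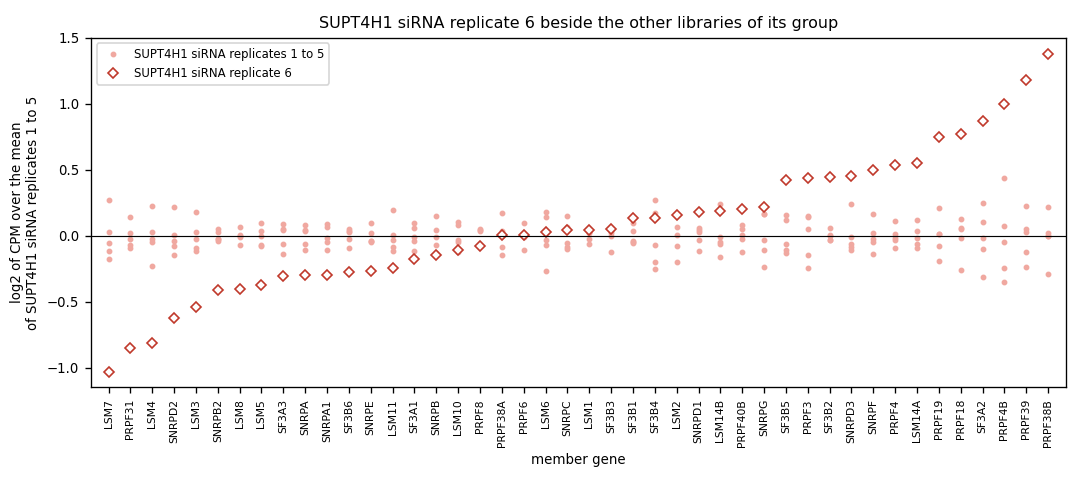
Log2 of the CPM in SUPT4H1 siRNA replicate 6 (open diamonds) and in replicates 1 to 5 (points) over the mean of replicates 1 to 5, for 44 of the 45 tested genes in order of replicate 6. It lies outside the range of the other 5 libraries for 35 genes, 18 above and 17 below.

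Genes that work with these proteins were described through 10 lists of 102 genes, 99 of them tested. In relative abundance 25 rose (25.3%) and 11 fell (11.1%), with a median log2 fold change of 0.09, where 20.0% and 20.2% of all genes did. With spike-in scaling 0 of the 99 rose and 54 fell (54.5%), where 0.311% and 59.0% of all genes did. Their median was then −0.74 and the highest value of any listed gene 0.32. The calls and values given below for these lists are in relative abundance. The snRNP assembly machinery held the most calls. Of 15 tested genes 6 rose and 3 fell. GEMIN5, the subunit of the SMN complex that recognises snRNAs, had 18.2, 20.0 and 21.6 CPM with SUPT4H1 siRNA, against 8.11, 9.12 and 9.78 CPM with scrambled siRNA. The groups did not overlap, and its log2 fold change of 1.14 (standard error 0.10, edgeR adjusted p = 3.14e-08) made it the one gene of the lists past 2-fold. CLNS1A, which encodes the Sm protein chaperone pICln, averaged 171 ± 13.3 and 118 ± 13.2 CPM (log2 0.53, edgeR adjusted p = 3.22e-05). PHAX, the adaptor for nuclear export of snRNAs, averaged 101 ± 6.71 and 79.6 ± 5.41 CPM (log2 0.35). SMN1 and SMN2, which are near-identical copies, were below the filter. How the counting treated reads that match both is not known here.

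Other snRNP proteins numbered 2 risen and 2 fallen of 14, with the tri-snRNP gene SNRNP27 at −0.40 and the U5 genes TXNL4A at 0.35 and CD2BP2 at 0.39. Of 11 factors of the 3′ splice site and U2 4 rose and 0 fell, among them U2AF2, which binds the polypyrimidine tract (0.40), the branch point protein gene SF1 (0.22) and the helicase gene DDX42 (0.33). Of 5 U1-associated factors TIA1 (0.39), which helps U1 to bind weak splice sites, and RBM25 (0.35) rose and 0 fell. In both lists the count of falls was 0 also at an unadjusted p under 0.05, by DESeq2 and by limma-voom. Of 19 genes of the PRP19 complex and spliceosome activation 4 rose and 3 fell. BUD31, a protein of the activated spliceosome, averaged 143 ± 17.4 CPM with SUPT4H1 siRNA and 244 ± 17.2 CPM with scrambled siRNA (SD, n = 6 each), a log2 fold change of −0.77 (standard error 0.08, edgeR adjusted p = 4.26e-07). The cyclophilin gene PPIE (−0.40) fell and the helicase gene AQR (0.41) rose. PRPF19 itself is counted above and not in this list.

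Of 6 second-step and disassembly factors, the helicase gene DHX8 (0.45) and SLU7 (0.26) rose and 0 fell. At an unadjusted p under 0.05, by DESeq2 and by limma-voom 3 rose and 0 fell, and without SUPT4H1 siRNA replicate 6 3 rose and 1 fell. Minor spliceosome proteins numbered 1 risen and 2 fallen of 12, with ZCRB1 at −0.38, SCNM1 at −0.40 and SNRNP35 at 0.30. Of 6 genes for U6 RNA maturation and recycling, the U6 uridylyltransferase gene TUT1 rose (0.65) and 0 fell, as at an unadjusted p under 0.05, by DESeq2 and by limma-voom. Of 7 tested partners of the cytoplasmic LSm ring, the 5′ exonuclease gene XRN1 rose (0.80) and 0 fell. By each of those counts 2 rose and 0 fell, and without SUPT4H1 siRNA replicate 6 3 rose and 0 fell. Of 4 partners of the U7 snRNP, ZNF473, whose product binds it, rose (0.69), as did the histone gene activator NPAT (0.39), and the histone stem-loop binding protein gene SLBP fell (−0.33). LSM11 and SLBP, which act on the same histone pre-mRNAs, were thus lower while ZNF473 was higher.

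**Figure D5:**
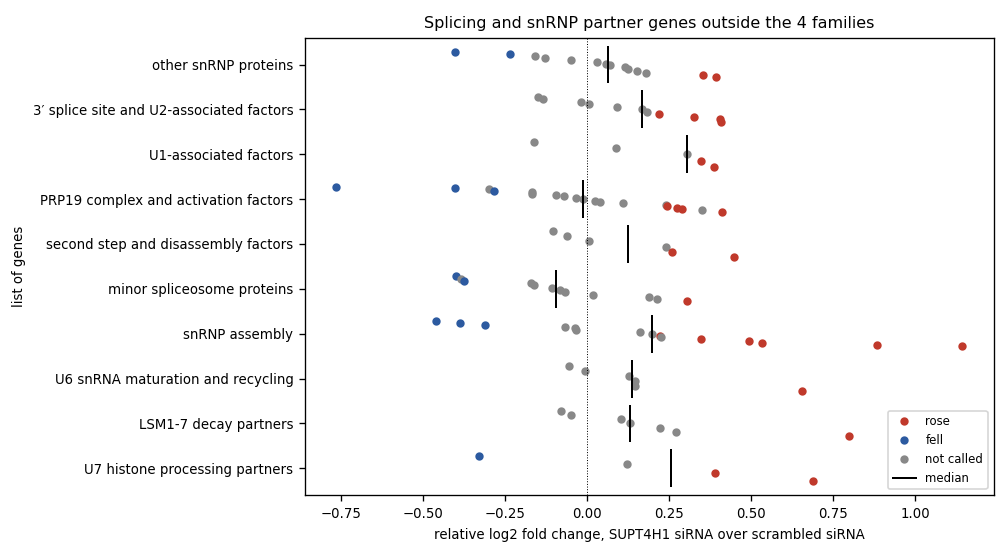
Relative log2 fold change of SUPT4H1 siRNA over scrambled siRNA for the 99 tested genes of 10 lists of splicing and snRNP partner genes; points are genes, coloured by the edgeR call, and black lines are list medians. Of the 99, 25 rose and 11 fell, and GEMIN5 at 1.14 is the point farthest to the right.

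Several features of the genes bear on how firmly single values can be read. The members are short genes, with a median length of 16389 bases for the 45 tested against 35253 for 12029 protein-coding genes tested. Across the 45 genes the Spearman correlation of the relative change with gene length was 0.09 and with the scrambled level −0.20, both given as descriptions over genes that share libraries. Exons of 17 of the 47 genes overlap a gene on the opposite strand, and the strand setting of the counting is not given in the sources used here. Besides those named above, GUCD1 overlaps SNRPD3 with 16147 counts against 112967, FKBP3 overlaps PRPF39 with 19363 against 2391, and TFPT overlaps PRPF31 with 2972 against 6107. FMNL3 overlaps PRPF40B with 1242 counts against 1808 and had a log2 fold change of 0.38 (edgeR adjusted p = 0.0723), so the rise of PRPF40B is uncertain in this respect. SF3A2 and PRPF39 are the members with fewer counts than the gene on the opposite strand. Pseudogenes of the families, of any class and 67 rows in all, held 2199 counts or 0.155% of the counts of the members. Among tested members the highest share was that of SNRPG, whose pseudogenes held 2.57% of its own counts. For LSM12, which was not tested, the pseudogene held 4 counts against 9.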

How the data were processed

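Raw whole-number counts per gene for the 12 libraries were deposited by the authors as 1 table, made with a forward 3′ mRNA kit from 200 ng of RNA, with 2 µl of ERCC standards (diluted 1:100) added to each lysate, per the labels' protocols. STAR, FastQC 0.11.5, MultiQC and R 3.4.3 were used with GRCh38.p10, per the submitters' processing notes. For the counting tool, annotation and strand setting, the sources used here give nothing.

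Counts were tested on all 12 libraries with edgeR 4.0.16 in R 4.3.3 (quasi-likelihood test with robust estimation, TMM, the default filterByExpr filter, no covariates), SUPT4H1 siRNA against scrambled siRNA, with Benjamini-Hochberg adjustment over 13811 genes and a threshold of 0.05. For spike-in scaling, libraries were scaled by the sum over 23 ERCC standards (subgroup B) that have a nominal ratio of 1 between mixes. That assignment came from general knowledge of the product. Intervals are 95% intervals from the edgeR standard errors. Standards and the single reporter row were kept out of library sizes and of all counts of called genes. Gene positions came from GENCODE 29 (GRCh38), in which all 47 members were found, and promoters from RefSeq (GRCh38.p14), in which 38 were.

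The members, gene lists and tests were chosen with earlier results of these data known. Values in each library are plotted for called members without overlap between groups (at most 16, by adjusted p). The lowest, median and highest values are given for these and for SF3B1, PRPF8 and PRPF31, and counts for SNRPN. Up to 3 called genes are named per list by adjusted p. Ranges and single-library values of other members and of GEMIN5, and the partner ratios, were picked after seeing the data. A check of 30 within-group pairs for duplicate libraries found none (chi-square per degree of freedom 5.04 to 42.4). The relative test was tried on simulated counts for 13811 genes. It recovered 56.7% of 67 planted 1.5-fold changes, 86.6% of 67 planted 2-fold changes and 100% of 66 planted 4-fold changes, and made 4 false calls. Alternatives were DESeq2 1.42.0, limma-voom (limma 3.58.1), other scalings, filters and standards, RNA integrity as a covariate, a minimum change of 1.5-fold, the replicate number as a block and leaving out each library. Depth limits the precision of genes near the filter. Of the members, 1 enters the counts and medians of its groups, but its own values are not reported here.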

Additional observations from a re-analysis of the deposited data

Results flagged for a closer look

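Among 90 sets of 6 values (45 genes in each of 2 groups), 17 held a library that Dixon's test at the 95% level set apart from the other 5. Chance alone sets apart about 1 set in 20, or 4.5 here. Of the 17, 10 came from SUPT4H1 siRNA replicate 6, 1 from another SUPT4H1 siRNA library and 6 from scrambled siRNA libraries.

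SUPT4H1 siRNA replicate 6 was the highest library for PRPF38B (206 CPM), PRPF19 (351 CPM), SF3B2 (238 CPM), LSM14A (194 CPM), PRPF4 (52.9 CPM), PRPF39 (26.3 CPM) and PRPF18 (23.4 CPM). It was the lowest for SNRPB2 (309 CPM), LSM8 (50.0 CPM) and PRPF31 (29.7 CPM). For SNRPB2, LSM8, PRPF4, PRPF19 and PRPF31 the call held without it, and for PRPF18 it did not (log2 0.28, edgeR adjusted p = 0.0660). The cause was not tested.

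SUPT4H1 siRNA replicate 4 was the lowest of its group for SF3B3 (135 CPM). Among scrambled siRNA libraries, replicate 1 was lowest for LSM1 (25.1 CPM) and SF3B2 (165 CPM), replicate 5 was lowest for SNRPA1 (205 CPM) and highest for PRPF4 (33.4 CPM), replicate 4 was lowest for PRPF8 (203 CPM), and replicate 2 was highest for PRPF4B (65.7 CPM). The calls of LSM1, SNRPA1 and PRPF4 held without each of these libraries.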

How the results depend on the processing

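No result reversed its direction under an alternative where it had been called. With a minimum change of 1.5-fold in the test, 1 snRNP gene rose (SNRPB2) and 1 fell (SNRPA1), and in the pathway lists 1 rose and 0 fell (25 and 11 without that minimum). With ERCC subgroup C in place of B, 6 genes fell under spike-in scaling instead of 29, with a median shift of all genes of −0.51. Leaving out each library in turn gave 11 to 13 rises and 6 to 10 falls in relative abundance. In the pathway lists it gave 25 to 29 rises and 9 to 14 falls. With spike-in scaling it gave 19 (without scrambled siRNA replicate 4) to 42 falls (without SUPT4H1 siRNA replicate 5), with 0 rises throughout. Of all 13811 genes tested, 5597 and 12171 fell in those fits. Other scalings moved the median of all genes by at most 0.04. Of 19 called genes 17 lost the call under at least 1 of 22 alternatives, 14 of them only under the minimum change. The others were LSM7, LSM14B and PRPF18. With RNA integrity as a covariate 10 rose and 7 fell, LSM7 and PRPF18 being lost. Depth differed between groups and limits small changes of low genes such as SF3A2.

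With the replicate number as a block, 10 genes rose and 7 fell in relative abundance, 32 fell with spike-in scaling, and 24 rose and 10 fell in the pathway lists. Deviations of libraries with the same number correlated between −0.29 and 0.05, and 0 of 6 correlated best with their own number, so the numbers were not taken as pairs.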
